A study of Mus musculus with 6 samples.

Results

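Mesothelial nuclei are described here, as found by single-nucleus RNA sequencing of 6 livers of male DIAMOND mice. Members were chosen by their UMIs: a nucleus was counted as mesothelial when at least 3 of 5 marker genes (Msln, Upk3b, Wt1, Gpm6a and Lrrn4) had a unique molecular identifier (UMI, which tags 1 captured RNA molecule). It also had to carry at most 1 UMI in sum over Ptprc, Ptprb, Stab2, Skap1 and Epcam, which mark leukocytes, endothelium, lymphocytes and biliary epithelium. The rule found 168 nuclei among 39012 that passed the quality filter, out of 41882 deposited barcodes. DIAMOND mice are a cross of 129A1/SvIm and C57BL/6J in which a Western diet leads from fatty liver to liver tumors. All 6 mice were placed on their diet at 2 months of age. The Ctrl group (2 mice) received chow for 40 weeks, the Pre-T group (2 mice) 40 weeks of Western diet (high-fat food and sugar water), before tumors, and the Post-T group (2 mice) 48 weeks of Western diet, after tumors had developed. The Post-T samples are titled as tumor and sourced as liver, so the piece of tissue taken may differ from that of the other groups, and tissue, diet time and tumor cannot be told apart there. Diet and group are likewise the same split between Ctrl and Pre-T.

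The mesothelium is a single layer of flattened cells that covers the liver capsule and the other surfaces of the body cavities. Its cells carry both epithelial features (keratins, junctions, apical microvilli, a basement membrane) and mesenchymal ones (vimentin). They secrete a lubricating surface coat rich in mucins and proteoglycans, and mesothelial cells of the embryonic liver are a source of hepatic stellate cells and fibroblasts. Among the markers, Msln encodes mesothelin, a surface protein that binds the mucin Muc16. Upk3b encodes a uroplakin, Wt1 a zinc-finger transcription factor of the embryonic coelomic lining, Gpm6a a membrane glycoprotein and Lrrn4 a leucine-rich repeat protein.

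Promoters are shown for 2 of the marker genes and for 2 genes the rule did not use and the results turn on, Igfbp5 and Muc16. Each runs from 250 bases before to 50 bases after the annotated start (300 bases, RefSeq, build GRCm38.p6), 5′ to 3′ on the gene's strand. Capitals mark GGAATG on either strand, the core letters bound by the TEAD factors of the Hippo pathway. The letters AGATAA, bound by GATA factors, and TGACTCA, bound by AP-1, were searched on both strands as well. Of 12 genes looked up 8 had a promoter, 9 windows in all, and Msln, Wt1, Upk1b and Pkhd1l1 had no entry. The Upk3b window lies at chr5:136038246-136038545 (plus strand), Lrrn4 at chr2:132880813-132881112 (minus), Igfbp5 at chr1:72874816-72875115 (minus) and Muc16 at chr9:18674554-18674853 (minus).
Upk3b: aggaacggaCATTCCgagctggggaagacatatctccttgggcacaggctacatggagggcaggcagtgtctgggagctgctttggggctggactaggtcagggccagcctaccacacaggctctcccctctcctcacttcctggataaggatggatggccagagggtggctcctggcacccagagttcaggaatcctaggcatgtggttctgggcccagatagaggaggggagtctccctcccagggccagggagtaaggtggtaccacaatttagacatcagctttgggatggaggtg
Lrrn4: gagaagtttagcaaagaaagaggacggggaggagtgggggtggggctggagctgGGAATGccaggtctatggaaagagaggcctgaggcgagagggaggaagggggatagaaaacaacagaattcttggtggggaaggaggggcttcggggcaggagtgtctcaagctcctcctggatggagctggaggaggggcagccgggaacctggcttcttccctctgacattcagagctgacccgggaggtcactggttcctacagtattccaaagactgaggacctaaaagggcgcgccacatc
Igfbp5: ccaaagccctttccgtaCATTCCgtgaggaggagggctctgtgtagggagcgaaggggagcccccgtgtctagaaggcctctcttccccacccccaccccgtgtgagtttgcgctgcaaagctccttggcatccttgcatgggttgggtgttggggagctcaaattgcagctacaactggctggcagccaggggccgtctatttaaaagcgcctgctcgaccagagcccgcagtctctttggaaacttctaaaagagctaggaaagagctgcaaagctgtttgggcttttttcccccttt
Muc16: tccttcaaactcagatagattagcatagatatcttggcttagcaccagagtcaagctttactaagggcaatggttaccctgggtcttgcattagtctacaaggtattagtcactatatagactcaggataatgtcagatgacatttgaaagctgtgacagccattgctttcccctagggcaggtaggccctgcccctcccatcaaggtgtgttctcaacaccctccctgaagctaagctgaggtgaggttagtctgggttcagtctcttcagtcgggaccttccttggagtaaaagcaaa
GGAATG occurred in the windows of Upk3b, Lrrn4 and Igfbp5 and in 1 of the 2 windows of Gpm6a. The windows of Muc16, Rspo1, Bnc1 and Gpc3 did not hold it. It is present in 14.66% of all 32851 promoters of this length. No window held AGATAA or TGACTCA, which 11.18% and 5.202% of all promoters hold. A match describes letters in the window and is no evidence of binding.

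Mesothelial nuclei came almost wholly from the chow-fed livers. Ctrl 1 gave 79 of 7231 nuclei, or 1.09% (95% exact binomial interval 0.866 to 1.36), and Ctrl 2 gave 74 of 7772, or 0.952% (0.748 to 1.19). Pre-T 1 gave 13 of 5407, or 0.240% (0.128 to 0.411), and Pre-T 2 gave 2 of 7846, or 0.0255% (0.00309 to 0.0921). No nucleus of 5433 in Post-T 1 or of 5323 in Post-T 2 met the rule, which allows a share of up to 0.0552% and 0.0564% when 3 nuclei are taken as the limit. These intervals and limits cover counting error only. Both Ctrl livers lay above both Pre-T livers, and both Pre-T livers above both Post-T livers, so that 91.1% of all members were Ctrl nuclei. The intervals of the 2 Pre-T livers did not overlap each other. Low Post-T counts were not particular to the members. Stellate-like nuclei, by the markers given below, numbered 387 and 626 in Ctrl, 318 and 343 in Pre-T and 108 and 15 in Post-T. Cholangiocyte-like nuclei numbered 30 and 24, 56 and 43, and 21 and 0. Of members and these 2 classes together, members made up 15.9% and 10.2% in Ctrl and 3.38% and 0.518% in Pre-T. In Post-T they were 0 of 129 and 0 of 15.

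**Figure D1:**
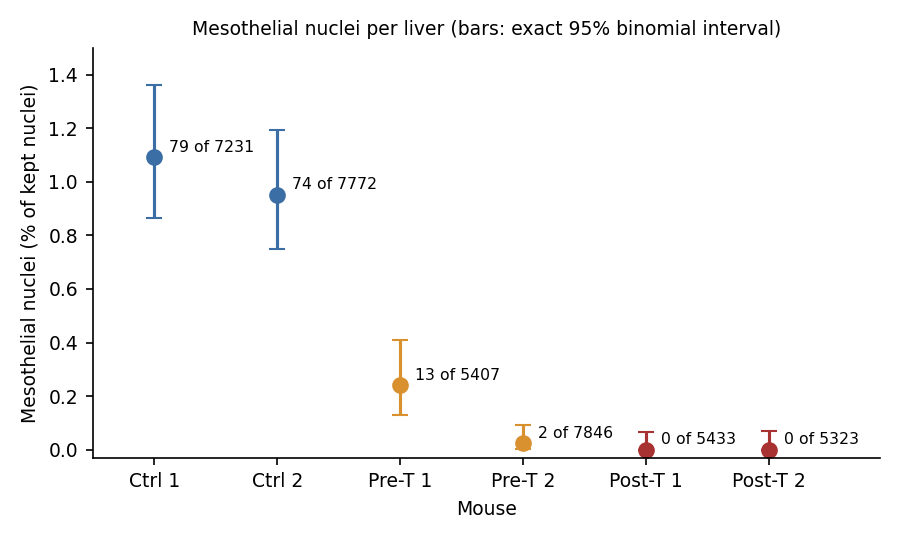
Share of mesothelial nuclei among the quality-filtered nuclei of each liver (vertical axis, percent), for the 2 Ctrl, 2 Pre-T and 2 Post-T mice (horizontal axis); bars through the points are 95% exact binomial intervals. The 2 Ctrl livers sit near 1%, Pre-T 1 at 0.240%, Pre-T 2 at 0.0255% and both Post-T livers at 0.

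The mean share was 1.02% ± 0.0993 (SD, n = 2) in Ctrl, 0.133% ± 0.152 (n = 2) in Pre-T and 0 in Post-T (n = 2). Pre-T lay 0.889 percentage points below Ctrl, Post-T 1.02 points below Ctrl and Post-T 0.133 points below Pre-T. The two-sided exact permutation test over mice gave p = 0.33 for each of these, the smallest value that 2 against 2 mice allow. The 4 Western diet livers lay 0.956 points below the 2 Ctrl livers (exact permutation p = 0.067, the smallest that 4 against 2 allow). None of these 4 comparisons could therefore reach 0.05. The nuclei of the livers differed in depth, with a median of 1623 to 2805 UMIs, and after thinning each nucleus to 500 UMIs (no kept nucleus was shallower) the rule still found 7 and 9 nuclei in the Ctrl livers, 1 in each Pre-T liver and 0 in each Post-T liver. The thinned difference of the Western diet from the Ctrl livers was -0.0985 points, in the same direction. Leaving out Pre-T 1 reduced the Post-T against Pre-T difference to 0.0255 points.

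The rule's threshold cut through a continuum. Of the members, 88 carried 3 of the markers, 60 carried 4 and 20 carried all 5, with median depths of 2388, 2813.5 and 3619.5 UMIs. Just outside lay 107 nuclei with 2 markers, of which 45 were in Ctrl 1, 53 in Ctrl 2, 7 in Pre-T 1, 1 in Pre-T 2, 1 in Post-T 1 and 0 in Post-T 2. A further 20 nuclei had 3 or more markers but over 1 UMI in the exclusion genes, and 10, 7 and 3 of them came from Ctrl 1, Ctrl 2 and Pre-T 1. Members held between 514 and 13711 UMIs (median 2639.5) and between 428 and 4380 genes (median 1564). Their median depth was alike across livers, at 2704, 2587.5, 2992 and 2567.5 UMIs in Ctrl 1, Ctrl 2, Pre-T 1 and Pre-T 2. Summed over members, however, the livers gave 243848, 205541, 49548 and 5135 UMIs, so that values in Pre-T 2 rest on 2 nuclei and very few molecules. Between 7 and 21 barcodes were shared by each pair of libraries, and 1 member's barcode occurred in another library.

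Within the members Gpm6a was detected in 98.2% of nuclei, Wt1 in 88.1%, Upk3b in 71.4%, Msln in 67.9% and Lrrn4 in 33.9%. These values follow from the rule and are given as a description. Mesothelial genes that the rule did not use were also present. Muc16, the large membrane mucin that binds mesothelin, had a UMI in 85.1% of members. It had one in 0.223% of 1797 nuclei called stellate-like (at least 3 of Reln, Lrat, Colec11, Pdgfrb and Dcn) and in 0 of 174 called cholangiocyte-like (at least 3 of Epcam, Pkhd1, Cftr, Sox9 and Spp1). In 6191 hepatocyte-rich nuclei, which should lack the gene, the share was 0.404%. The median depth was 2639.5 UMIs in members, 2638 in stellate-like, 3297.5 in cholangiocyte-like and 950 in hepatocyte-rich nuclei. After thinning to 500 UMIs Muc16 remained in 47.6% of members and in none of the stellate-like nuclei. Bnc2, a zinc-finger factor of the same layer, was found in 92.9% of members and 2.78% of stellate-like nuclei. The fibrocystin-like gene Pkhd1l1 reached 78.0%, the membrane-cytoskeleton linker Ezr 73.8%, the WNT amplifier Rspo1 70.8% and the uroplakin gene Upk1b 61.3%. Bnc1 (33.9%), Nkain4 (33.3%), Gata6 (32.1%), Pdpn (27.4%) and Krt19 (23.8%) were less often detected, Dmkn was found in 2.38% and Calb2, a marker of human mesothelium, in none. Krt8 and Krt18 did not mark the members, with 19.6% and 22.6% against 43.1% and 38.5% of cholangiocyte-like and 18.3% and 24.6% of hepatocyte-rich nuclei. The 107 nuclei with 2 markers looked like the members in these genes, with Muc16 in 74.8% and Bnc2 in 81.3%.

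**Figure D2:**
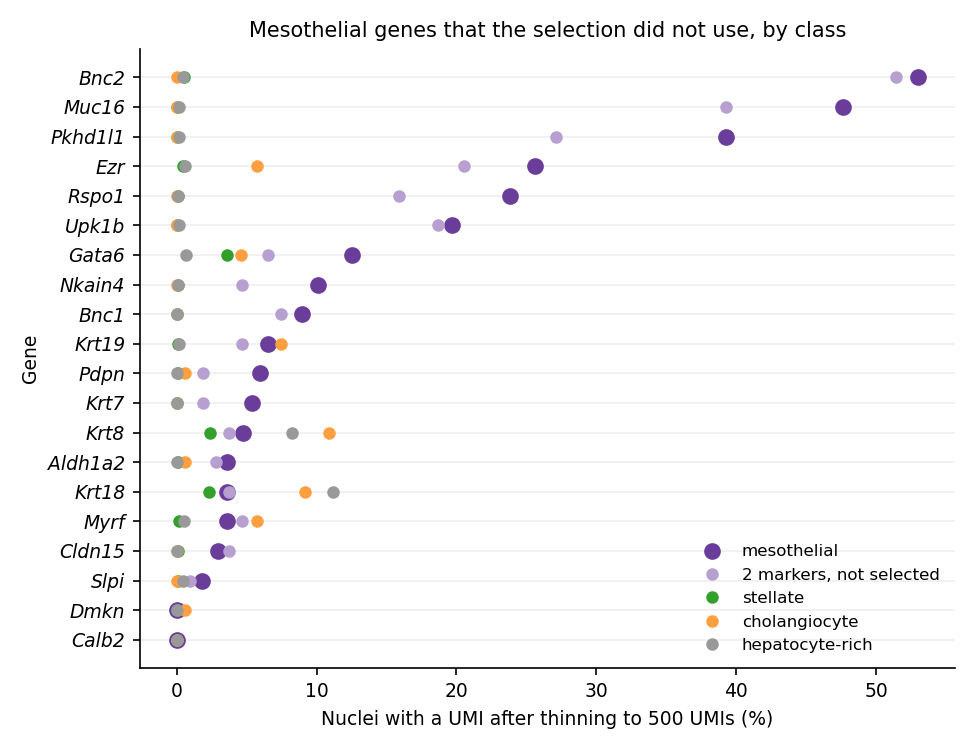
Percent of nuclei with at least 1 UMI of each mesothelial gene outside the rule after thinning to 500 UMIs (horizontal axis), for members, nuclei with 2 markers, stellate-like, cholangiocyte-like and hepatocyte-rich nuclei (points). Muc16 lies at 47.6% and Bnc2 at 53.0% of members, far right of the 3 other classes, while Krt8 and Krt18 are more common in cholangiocyte-like and hepatocyte-rich nuclei than in members.

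The same genes were read over all filtered nuclei of each library, with no selection of members, as a gene's UMIs in 1000000 UMIs of the library (CPM). Muc16 stood at 20.7 and 24.7 in Ctrl 1 and Ctrl 2, 4.10 and 0.512 in Pre-T 1 and Pre-T 2, and 0.189 and 0.155 in Post-T 1 and Post-T 2. Upk1b followed at 6.88 and 7.14, then 1.48 and 0.326, then 0.189 and 0.0515. Rspo1 gave 10.5 and 9.02, then 2.05 and 0.372, then 0.237 and 0. In these 3 genes both Ctrl libraries lay above both Pre-T libraries, which lay above both Post-T libraries, with no overlap. Bnc1 kept the same order, at 3.54 and 2.69, then 0.451 and 0.0465, then 0 and 0. Pdpn, Krt7 and Krt19 did so as well. The share of all genes that keep this order was not counted, so the order is given as a description. Several other mesothelial genes outside the rule did not follow this order. Nkain4 stood at 2.45 and 3.51 in Ctrl against 9.51 and 0.0465 in Pre-T, and Slpi at 1.69 and 1.43 against 5.33 and 5.86. Ezr gave 25.4 and 21.8 in Ctrl and 20.7 and 25.5 in Pre-T. Pkhd1l1 was less clear-cut, at 19.1 and 23.2 in Ctrl, 5.78 and 3.26 in Pre-T and 3.46 and 0.258 in Post-T, where Post-T 1 exceeded Pre-T 2. Wt1 and Bnc2 were not particular to the members. Wt1 stood at 4.78 in Post-T 1, where no member was found, and Bnc2 at 40.5 in that library. In such library sums fewer mesothelial nuclei and less RNA per nucleus cannot be told apart. Within the members Muc16 stood at 1156, 1591, 1554 and 1168 CPM in Ctrl 1, Ctrl 2, Pre-T 1 and Pre-T 2, and the groups overlapped. These CPM are relative to the UMIs of the class, as in all values that follow. Nuclei with little marker RNA could not meet the rule, so member values cannot separate fewer nuclei from less RNA per nucleus. The value of Pre-T 2 rests on 6 UMIs.

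**Figure D3:**
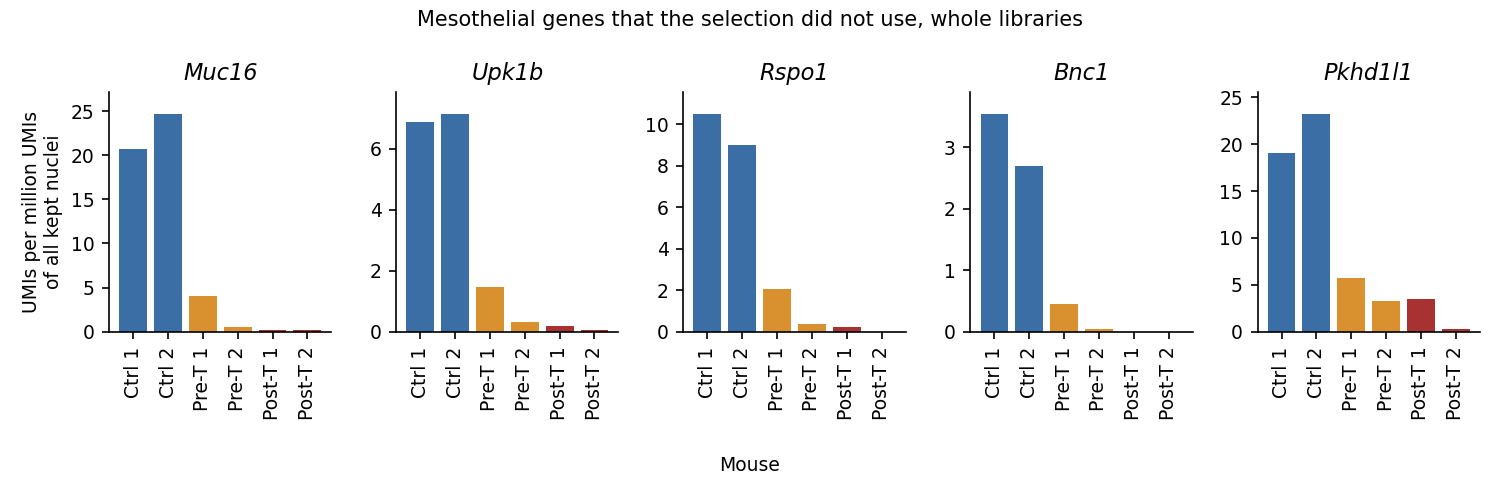
Level over all filtered nuclei of each library (vertical axes, linear CPM from 0, a scale for each gene) of Muc16, Upk1b, Rspo1, Bnc1 and Pkhd1l1, 1 bar a mouse. All but Pkhd1l1 step down from the Ctrl to the Pre-T to the Post-T libraries, from 20.7 and 24.7 to 0.189 and 0.155 CPM for Muc16.

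To place the members among the other structural cells, their summed UMIs were compared with those of the stellate-like nuclei of the same livers. Stellate cells are the vitamin A-storing pericytes of the liver sinusoid. Of 14747 genes tested, 1799 (12.2%) passed an adjusted p under 0.05, 883 higher (5.99%) and 916 lower (6.21%) in the members, in edgeR's quasi-likelihood test with the mouse as a block and Benjamini-Hochberg adjustment. Without Ctrl 1 the count was 974 and without Ctrl 2 it was 927. With members of at least 4 markers it was 1750, of which 38.6% were higher, against 49.1% in the main count. The median log2 difference over all genes was -0.29. Of the 18 tested mesothelial genes outside the rule, 16 were higher and 0 lower, with a median log2 difference of 6.41.

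The genes with the largest difference included the mucin Muc16 (chr9:18495455-18674530, GRCm38), at 1156, 1591, 1554 and 1168 CPM in the members of Ctrl 1, Ctrl 2, Pre-T 1 and Pre-T 2 against 4.33, 1.05, 0 and 0 CPM in stellate-like nuclei (log2 difference 9.50 ± 0.66 SE, adjusted p = 1.75e-43). Lrp2, the endocytic receptor megalin, stood at 472, 302, 404 and 974 CPM against at most 2.60 CPM, and the BMP receptor gene Bmpr1b at 238, 545, 464 and 1363 CPM against at most 1.73 CPM. In all 3 genes every member sum lay above every stellate-like sum. The potassium channel genes Kcnd3 (log2 difference 8.66 ± 0.59) and Kcnd2 (8.29 ± 0.59), the synaptic receptor gene Il1rapl1 (8.41 ± 0.59), Lvrn (8.37 ± 0.59), Wdr17 (8.37 ± 0.62), Pkhd1l1 (9.19 ± 0.67) and the long noncoding RNA Gm29266 (8.86 ± 0.57) completed the 10 largest. Wdr17 (chr8:54629055-54887184, minus strand) contains, on the opposite strand, the first of the 2 RefSeq starts of the marker Gpm6a. Whether this overlap affected the counts of either gene was not tested. In the other direction Sgip1, the collagen-modifying P3h2, the carotenoid-cleaving Bco1, the small GTPase Gem and the smooth muscle myosin Myh11 had 0 UMIs in all members. Against a floor of 3 UMIs over the members they were at least 27.3-fold, 36.4-fold, 18.7-fold, 14.9-fold and 10.8-fold lower than in stellate-like nuclei. All 5 had UMIs in stellate-like nuclei of each Ctrl and Pre-T liver, and Myh11 missed the threshold in DESeq2 (adjusted p = 0.0707).

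Genes of the basement membrane, the sheet of collagen IV, laminins and nidogen beneath an epithelium, divided by chain. Of 25 tested, 9 were higher and 8 lower in the members, with a median of 0.50. The less common collagen IV chains were higher. Col4a4 stood at 308, 574, 404 and 389 CPM in the members of Ctrl 1, Ctrl 2, Pre-T 1 and Pre-T 2 against 12.1, 7.33, 25.4 and 10.2 CPM in stellate-like nuclei (4.66 ± 0.42, adjusted p = 9.1e-26). Col4a3 (4.57 ± 0.44), Col4a5 (4.02 ± 0.39) and Col4a6 (6.36 ± 0.49) were higher with it, and so were the laminin chains Lama3, Lama4 (3.77 ± 0.40) and Lama5 (5.68 ± 0.54) and the laminin-binding integrin Itgb4. The ubiquitous chain Col4a1 was lower, at 41.0, 24.3, 60.6 and 0 CPM against 570, 137, 393 and 352 CPM (-3.44 ± 0.53, adjusted p = 3.29e-09). Col4a2 (-2.55 ± 0.48), Lama1 (-6.65 ± 0.75), Lama2 (-2.89 ± 0.51), Lamb1, the nidogen Nid1 (-2.34 ± 0.48), Col15a1 and Itgb1 were lower as well. Lama1 was represented by 1 UMI in each of the 2 Ctrl livers and by 0 in Pre-T, against 267 to 412 CPM in stellate-like nuclei. Col4a3 and Col4a6 had 0 UMIs in Pre-T 2, whose members gave no UMI of Col4a1 and Col4a2 either. In the other 3 livers Col4a3 to Col4a6 were higher and Col4a1 and Col4a2 lower in the members than in stellate-like nuclei.

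**Figure D4:**
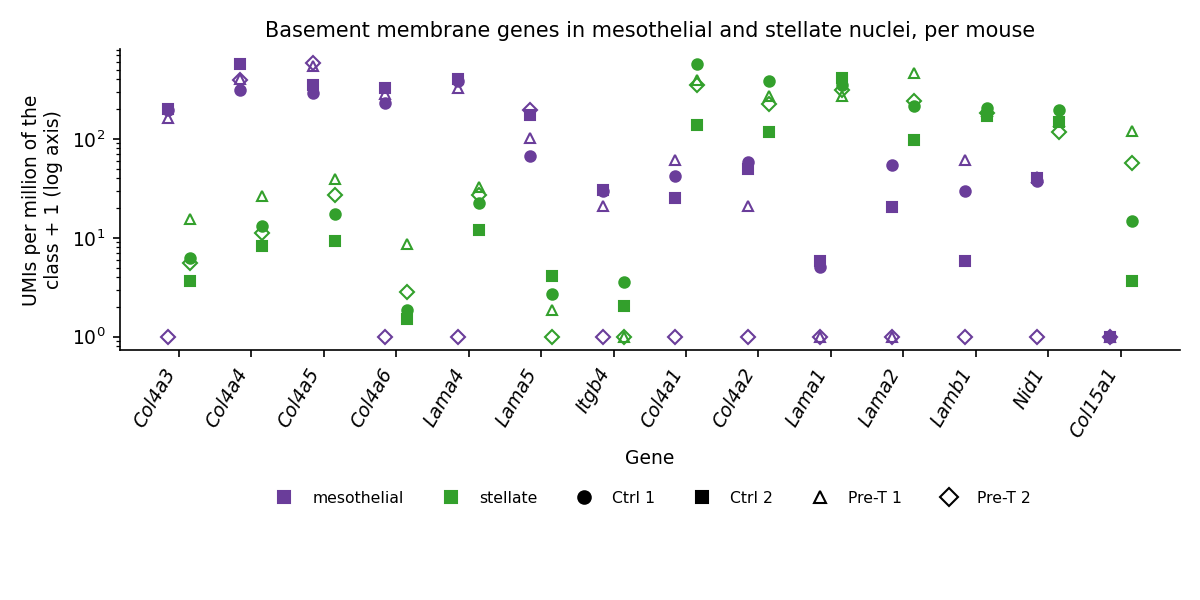
CPM of each class plus 1 (vertical axis, log scale) for basement membrane genes in members and stellate-like nuclei, each point 1 Ctrl (filled) or Pre-T (open) mouse, with 0 drawn at 1. Col4a3, Col4a4, Col4a5 and Col4a6 are higher in members and Col4a1, Col4a2 and Lama1 in stellate-like nuclei, and several genes are at 0 in the members of Pre-T 2.

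Of 24 junction and polarity genes tested, 8 were higher and 2 lower in the members, with a median of 0.19 against -0.29 over all genes. P-cadherin (Cdh3) stood at 299, 263, 444 and 389 CPM against 5.23 to 7.63 CPM in stellate-like nuclei (5.24 ± 0.43), and the polarity gene Crb2 was higher by 6.62 ± 0.55 and Cdh11 by 3.73 ± 0.43. N-cadherin (Cdh2) was lower, at 254, 190, 20.2 and 0 CPM against 1158 to 1349 CPM (-3.38 ± 0.51, adjusted p = 9.18e-10). The members therefore carried a different set of cadherins, with Cdh3 above and Cdh2 below the stellate-like level in each of the 4 livers.

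Signals of the WNT and BMP pathways, which act over short distances between liver cells, gave 10 higher and 2 lower of 26 tested. Rspo1, which potentiates WNT signals, stood at 500, 443, 727 and 389 CPM in the members against 0 to 1.73 CPM (8.24 ± 0.56, adjusted p = 8.44e-46). Its relative Rspo3 showed the opposite, with 20.5, 19.5, 0 and 0 CPM against 379 to 772 CPM (-5.35 ± 0.63). Among the BMP ligands Bmp4 was higher (1.86 ± 0.40) and Bmp5 lower (-6.65 ± 0.68), and Bmp4 missed the threshold without Ctrl 1 (adjusted p = 0.089) and without Ctrl 2 (0.149). Wnt2b, Wnt5a, Fzd4, Bmp6, Bmper, Bmpr1b and the BMP target Id1 were also higher.

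Growth factors and receptors gave 8 higher and 6 lower of 30. Igfbp5, a binding protein of insulin-like growth factors, stood at 1382, 1474, 2846 and 2337 CPM against 3.70 to 35.5 CPM (6.72 ± 0.54, adjusted p = 6.2e-33). Igfbp6 (6.58 ± 0.52) and Fgf9 (6.36 ± 0.62), with Fgf2, Fgf18, Fgfr1, Met and Nrg1, were higher too. Hgf, the hepatocyte growth factor made by stellate cells, was lower, at 45.1, 43.8, 0 and 0 CPM against 1428 to 1767 CPM (-5.67 ± 0.61), whereas its receptor gene Met was higher. Fgfr2 (-2.82 ± 0.48), Igfbp3, Igfbp7, Pdgfra and Vegfc were lower. Met missed the threshold without Ctrl 1 (adjusted p = 0.288) and without Ctrl 2 (0.185), and Nrg1 in DESeq2 (0.0578).

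Genes linked to mesenchymal transition gave 3 higher and 6 lower of 24. Zeb2, a repressor of epithelial genes, stood at 148, 48.7, 60.6 and 0 CPM against 2926 to 3578 CPM (-5.55 ± 0.59), and Postn, a matrix protein of activated fibroblasts, had 0 UMIs in all members. Vim, the intermediate filament vimentin, was higher (2.24 ± 0.37), as were Tgfb2 (1.67 ± 0.38) and Tgfb3. Vim missed the threshold without Ctrl 1 (adjusted p = 0.0632), and Tgfb2 without Ctrl 1 (0.179) and without Ctrl 2 (0.453). In the retinoid pathway Aldh1a2, which makes retinoic acid, was higher (4.42 ± 0.63, on 22, 5, 1 and 1 UMIs), and Aldh1a1 (-1.83 ± 0.45), Dhrs3, Rarb (-3.75 ± 0.54) and Rxra were lower, of 14 tested. Glycocalyx genes gave Muc16 and the heparan sulfate proteoglycan gene Gpc3 (6.38 ± 0.52) higher and Gpc4 lower of 15. Inflammatory genes gave 2 higher, the alarmin Il33 (2.34 ± 0.43) and the cytokine Il18 (2.75 ± 0.43), and 4 lower of 23, among them the chemokine Cxcl12 (-3.45 ± 0.51). Il33 did not pass in DESeq2 (adjusted p = 0.402), without Ctrl 1 (0.0876) or without Ctrl 2 (0.112). Complement genes gave only the complement regulator Cd55 (2.42 ± 0.46) of 14, while C3 was detected in 94.0% of members and 66.4% of stellate-like nuclei and did not pass with all 4 livers. Without Pre-T 2, which has 2 members, C3 was higher in the members by 1.44 (adjusted p = 3.2e-06). The joint list of Hippo pathway and mesothelioma genes gave 2 higher (Amotl2 and the receptor ligand Gas6, 3.88 ± 0.39) and 3 lower (Ccn2, Stk3 and Frmd6) of 22. Interferon and antigen presentation genes gave 2 higher and 3 lower of 22, lipid handling genes 1 higher and 5 lower of 28 and cell cycle genes 0 in either direction of 13.

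The immediate early and AP-1 genes, which respond within minutes to many stimuli, gave 6 higher and 0 lower of 18, namely Fosl2 (2.06 ± 0.46), Atf3, Ier3 (1.84), Klf2 (2.41), Klf4 and Klf6 (1.57). Without Ctrl 1 only Fosl2 still passed among these 6, and it missed the threshold without Ctrl 2 (adjusted p = 0.0918). Atf3 had 58 UMIs in 27 of the 79 members of Ctrl 1 and 0 UMIs in the 74 members of Ctrl 2 and in all Pre-T members. Klf4 had 59 UMIs in Ctrl 1 against 3 in Ctrl 2, Nr4a1 29 against 1, Fos 22 against 2 and Egr1 33 against 8. In stellate-like nuclei of the same 2 livers Atf3 stood at 16.5 and 2.09 CPM and Egr1 at 81.5 and 88.5 CPM. Outside this list Fgf1 (50 against 6 UMIs) and Col1a1 (18 against 0) also differed between the 2 Ctrl livers. These genes were chosen after their values were seen, and 1 liver against 1 allows no test. The difference of Atf3 from stellate-like nuclei (2.78 ± 0.55) turned to -4.28 without Ctrl 1 and did not pass in DESeq2, and that of Klf4 missed the threshold in DESeq2 (adjusted p = 0.0583).

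Cholangiocytes are the keratin-bearing epithelium that lines the bile ducts. Against the cholangiocyte-like nuclei 1026 of 11349 genes (9.04%) passed, 630 higher (5.55%) and 396 lower (3.49%) in the members, in the same edgeR test. Leaving out Ctrl 1 left 418 genes, leaving out Ctrl 2 left 535 and leaving out Pre-T 1 left 651, and DESeq2 called 709. Of the 18 mesothelial genes outside the rule 12 were higher and 0 lower. Muc16 and Upk1b had 0 UMIs in all cholangiocyte-like nuclei and were at least 379-fold and 112-fold higher in the members against a floor of 3 UMIs over that class, and Rspo1 was at least 137-fold higher. The 10 largest differences were those of Nxph1, Muc16, Nrg2, Rspo1, Bmpr1b, Cadm2, Podn, Upk1b, Prdm6 and Pkhd1l1. Nxph1, a neurexin ligand, stood at 369, 2248, 2543 and 4284 CPM in the members and at 0 in cholangiocyte-like nuclei. In the other direction Kcnip4, Hnf4g, A230001M10Rik, Sobp and Enah had 0 UMIs in the members, and Hnf4g, a nuclear receptor of gut and liver epithelia, was at least 32.3-fold lower.

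The 2 epithelia also differed in their junctions, with 5 genes higher and 5 lower of 24. E-cadherin (Cdh1) was lower in the members, at 53.3, 14.6, 0 and 195 CPM against 400, 323, 267 and 188 CPM in the cholangiocyte-like nuclei of Ctrl 1, Ctrl 2, Pre-T 1 and Pre-T 2 (-3.31 ± 0.62, adjusted p = 5.47e-06), and Pre-T 2 rested on 1 UMI. The desmosomal Dsp (-2.84 ± 0.68) and the tight junction gene Ocln (-2.15 ± 0.66) were lower, with Ctnnb1 and Dsg2. Cdh3 (3.49 ± 0.59), Cdh11 (4.19 ± 0.78), Crb2 (5.16 ± 0.83), Cldn15 and Ezr were higher. Without Ctrl 1 Cdh11 (adjusted p = 0.145), Dsp (0.0702) and Ocln (0.365) missed the threshold, and Ocln also without Pre-T 1 (0.136). Of 19 mesenchymal genes tested 7 were higher, including Vim (4.08 ± 0.66), Col1a1, Col1a2 and Col3a1, and Cdh1 alone was lower. The proteoglycan gene Dcn was also higher than in cholangiocyte-like nuclei (3.16 ± 0.55). The basement membrane chains Col4a4 (3.12 ± 0.57) and Col4a6 (2.82 ± 0.59) were higher in the members than in this class too, and 6 of 24 basement membrane genes were higher and 2 lower. Members thus had the lower E-cadherin of the 2 epithelia together with higher vimentin.

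Between the diets few genes passed within the members. In Pre-T against Ctrl 15 of 11719 genes (0.128%) passed, 3 higher (0.0256%) and 12 lower (0.102%) in edgeR's quasi-likelihood test with Benjamini-Hochberg adjustment, and 691 had an unadjusted p under 0.05. DESeq2 gave an adjusted p to only 1041 of these genes and called 17, all lower, 12 of them shared with the edgeR calls. The count fell to 0 when Ctrl 1, Ctrl 2 or Pre-T 1 was left out in turn (89, 172 and 723 genes at an unadjusted p under 0.05). It fell to 2 with members of at least 4 markers and rose to 116 without Pre-T 2, whose sum holds 5135 UMIs. The median log2 difference over all genes was -0.68, so that values near it do not stand apart. No list other than the mesothelial genes outside the rule (1 of 19 tested higher, Slpi) and the hepatocyte markers (1 of 15 lower, Cps1) held a gene that passed.

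Of the 12 genes that were lower in Pre-T, Cps1 was the only one on the list of 15 hepatocyte markers. That list is short, and absence from it does not show that a gene was expressed by the members. Serpina1e, a serum protease inhibitor, stood at 1837 and 409 CPM in Ctrl and at 0 in both Pre-T livers (adjusted p = 0.00142). In stellate-like nuclei of the same livers it stood at 2073, 415, 8.48 and 49.0 CPM. Slc7a2, Sorbs2, Ttc39c, Sult2a8 and Prr16 were likewise at 0 in the Pre-T members. Against a floor of 3 UMIs over the Pre-T members these 6 genes were at least 21.6-fold, 10.9-fold, 7.75-fold, 6.61-fold, 6.61-fold and 6.17-fold lower. Mug2 and Kynu had 1 UMI each in Pre-T, giving Ctrl over Pre-T ratios of 45.9 (95% counting interval 8.18 to 1817) and 34.1 (6.07 to 1350). Mup3, with 2 UMIs, gave 23.4 (6.42 to 194). Cps1, the entry enzyme of the urea cycle, stood at 1706, 1085, 60.6 and 195 CPM (log2 difference -4.66 ± 1.09, adjusted p = 0.0226), and Cyp3a25 (-4.30 ± 1.06) and Mug1 (-4.06 ± 1.01) completed the set. All 12 were also lower in both Pre-T than in both Ctrl livers in stellate-like nuclei, where Cps1 stood at 1949, 1894, 294 and 520 CPM. The share of all genes with that order in stellate-like nuclei was not counted. None of the 12 passed the test of a difference between the classes. With 49548 and 5135 member UMIs in Pre-T 1 and Pre-T 2, that test cannot show that the changes were alike. A shared source was not tested. Reads of the Mup, Mug, Serpina1, Cyp3a and Sult2a families may be split among near-identical copies, so their single-gene values are uncertain.

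The hepatocyte marker list, with all 15 genes detected in each liver's members, made up 2.26% and 1.25% of member UMIs in Ctrl and 0.620% and 2.04% in Pre-T. In stellate-like nuclei the same list made up 2.54%, 1.65%, 0.762% and 2.06%, and over all filtered nuclei 4.0%, 3.09%, 1.45% and 3.14%. The share in members thus followed that in the other nuclei of the same liver, with Pre-T 1 lowest, and its part in the falls was not tested. Other lists were small in the members. Endothelial markers made up 0.0229% to 0.0389% of UMIs, macrophage markers 0.00779% and 0.0107% in Ctrl against 0.0262% and 0.0974% in Pre-T, and lymphocyte markers at most 0.00605%.

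Of the 3 genes that were higher in Pre-T, Slpi alone showed no overlap between the groups. It encodes an antiprotease secreted at epithelial surfaces and stood at 45.1 and 19.5 CPM in Ctrl against 484 and 195 CPM in Pre-T (log2 difference 3.14 ± 0.74, adjusted p = 0.0226). The counts behind these values were 11, 4, 24 and 1 UMIs, in 5 of 79, 4 of 74, 4 of 13 and 1 of 2 nuclei, and 19 of the 24 UMIs of Pre-T 1 came from 1 nucleus. Without Pre-T 1 the difference was 1.11 and did not pass (adjusted p = 0.789), nor did it pass without Ctrl 1, without Ctrl 2 or with DESeq2 size factors (0.0828). In stellate-like nuclei Slpi stood at no more than 2.77 CPM. Over all filtered nuclei it was also higher in both Pre-T libraries, as given above, and members held 18.5% and 0.794% of its UMIs there. Cntnap3 (0 and 14.6 CPM in Ctrl, 484 and 0 in Pre-T) and Hoxb6 (0 and 0, then 161 and 0) passed the test as well, but rested wholly on Pre-T 1, and Pre-T 2 did not exceed the Ctrl livers. Without Pre-T 1 the difference of Cntnap3 turned to -3.22.

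**Figure D5:**
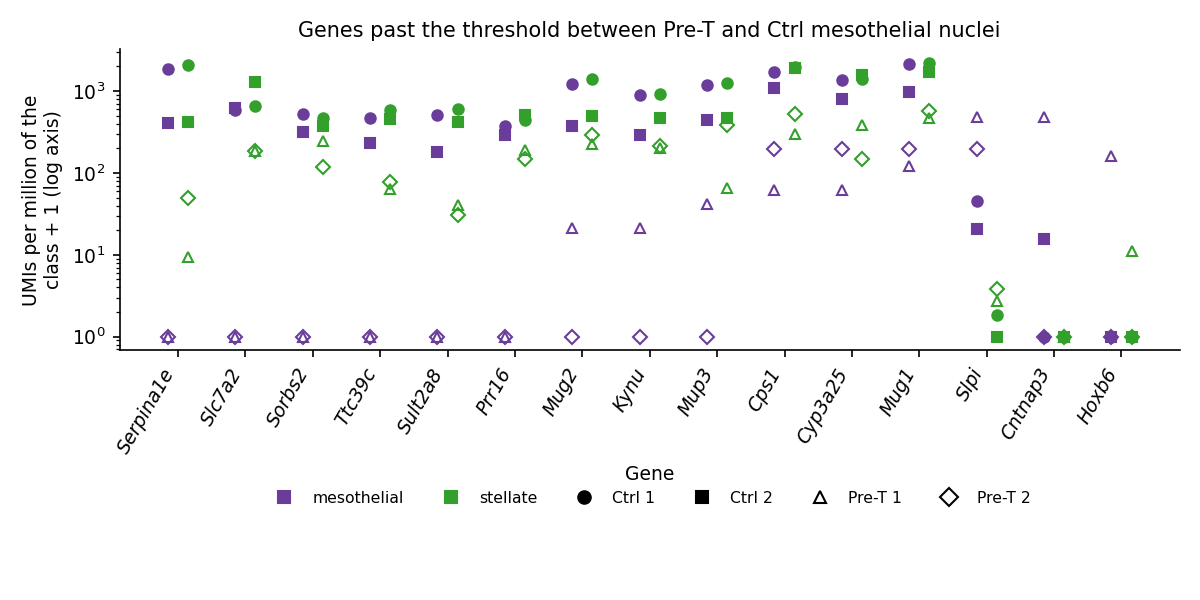
CPM of the class plus 1 (vertical axis, log scale) for the 15 genes that passed in Pre-T against Ctrl, in members and in stellate-like nuclei, each point 1 Ctrl (filled) or Pre-T (open) mouse, with 0 drawn at 1. The 12 lower genes are also lower in Pre-T stellate-like nuclei, while Slpi is higher in the 2 Pre-T livers (484 and 195 CPM) than in the 2 Ctrl livers in members.

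Whether genes differed between the diets in another way in members than in stellate-like nuclei was tested by the interaction of class and group. DESeq2 gave an adjusted p to only 1310 genes and called 14, 6 of them shared with edgeR. The edgeR count was 21 of 14747 genes (0.142%), 1 with a higher (0.00678%) and 20 with a lower change in the members (0.136%). It fell to 1 and 0 when Ctrl 1 and Ctrl 2 were left out in turn (101 and 116 genes at an unadjusted p under 0.05), and rose to 38 without Pre-T 2. Without Pre-T 1 the median log2 difference of changes over all genes was -6.12, against -1.02 in the main fit, so the values depend on that mouse too. Pcdh15, a protocadherin, was the gene with the higher change, at 123, 370, 505 and 389 CPM in the members against 798, 784, 42.4 and 84.1 CPM in stellate-like nuclei (log2 difference of changes 4.41 ± 0.80, adjusted p = 0.000121). In stellate-like nuclei both Ctrl livers lay above both Pre-T livers, and in the members both Pre-T livers lay above both Ctrl livers. Pcdh15 no longer passed when either Ctrl liver or Pre-T 1 was left out.

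Among the 20 others the change from Ctrl to Pre-T was lower in the members than in stellate-like nuclei. The splicing factor gene Rbfox1 stood at 8.67, 16.2, 470 and 486 CPM in stellate-like nuclei and at 1193, 5473, 7044 and 9737 CPM in the members (-4.65 ± 0.82). Fmo2 gave 6.07, 10.5, 93.3 and 91.5 CPM against 336, 1163, 1009 and 390 CPM (-3.84 ± 0.72). Dkk3, a secreted protein of the Dickkopf family, gave 16.5, 7.33, 163 and 101 CPM against 36.9, 29.2, 0 and 0 CPM. In Rbfox1 and Fmo2 the members lay far above the stellate-like nuclei in both Ctrl livers. Rbfox1, Fmo2 and Dkk3 lost the call without Ctrl 1 and without Ctrl 2, and Dkk3 also without Pre-T 1. The member values of Dkk3 rested on 9 and 6 UMIs in Ctrl and on 0 in Pre-T. With members of at least 4 markers Dkk3 missed the threshold in the same edgeR test (adjusted p = 0.0675). Il33, Nrg1 and Lama3, given above as higher in the members, were also among the 20. Their difference from stellate-like nuclei was thus lower in Pre-T than in Ctrl. Without 1 mouse the difference of changes ranged from -9.75 to -4.57 in Il33 and from -13.4 to -3.13 in Nrg1. In Lama3 it ranged from -4.51 to -1.11. Nrg1 and Lama3 missed the threshold in DESeq2 (adjusted p = 0.0971 and 0.283). No comparison with Post-T could be made within the members, since no nucleus there met the rule.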

How the data were processed

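Nuclei of 6 snap-frozen livers (2 mice in each of 3 groups) were made into 3′ libraries with 10x Genomics Next GEM v3.1 chemistry. The authors aligned reads to mm10 with Cell Ranger 6.1.1 and deposited UMI counts per gene and barcode, not normalized. Whether intronic reads were counted is not given in the sources used here. The libraries held 5638 to 8469 barcodes and 22453658 to 40307564 UMIs, over 32285 genes. The labels name the groups, and each sample is a separate mouse.

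Nuclei with more than 200 and fewer than 5000 genes and under 5% mitochondrial UMIs were kept, the filter of the study's methods. No doublet caller was run. Hepatocyte-rich nuclei were the other kept nuclei with over 2% of UMIs in Alb, Apob and Cps1. Members and gene lists (25 lists, 419 entries) were chosen with earlier results of these data known. Classes were set by markers alone, without clustering or a cell type annotation.

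UMIs were summed per mouse and class. Genes were tested with edgeR 4.0.16 (R 4.3.3; TMM factors, quasi-likelihood test) on the counts, with at least 3 counts within members and at least 10 in class comparisons, Benjamini-Hochberg adjustment over all genes tested and a threshold of 0.05. The genes of the rules were not tested. Class comparisons and the interaction had the mouse as a block. DESeq2 1.42.0 was an alternative, with DESeq2 size factors, other count minimums, other marker thresholds and left-out mice. Shares were compared by two-sided exact permutation over mice. The scripts were tested on simulated data. Genes were named as members of the lists, some of which are counted with their list but not reported here by name. In Pre-T against Ctrl the 8 largest falls and rises were added among genes with at least 20 CPM on average and no overlap between groups, or, where fewer than 3 passed, the 3 lowest p. In each class comparison the 10 largest differences toward the members and 5 away from them were added, at 50 CPM or more in the higher class and with 1 direction in all mice. In the interaction up to 5 genes in each direction were added, at 20 CPM or more in the members. Rbfox1 and Fmo2 were picked from the genes that passed the interaction, outside these rules. Means were taken over the 4 mice with members. Gene coordinates come from GENCODE on GRCm38 and promoters from RefSeq on GRCm38.p6.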

Additional observations from a re-analysis of the deposited data

Results flagged for a closer look

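The change from Ctrl to Pre-T differed between mesothelial and stellate-like nuclei, by edgeR's test of the interaction, for 6 genes chosen by the size of that difference. Pcdh15 had a log2 difference of changes of 4.41 ± 0.80 (SE, adjusted p = 0.000121). The other 5 were lower in the members. Plcxd3 gave -11.91 (adjusted p = 7.73e-05), with 26, 17, 0 and 0 UMIs in the members of Ctrl 1, Ctrl 2, Pre-T 1 and Pre-T 2. Kcnb2, a potassium channel gene, gave -11.87 (adjusted p = 7.73e-05) on 42, 37, 0 and 0 UMIs, and Adamts17, a secreted metalloprotease, -11.33 (adjusted p = 0.0341) on 18, 3, 0 and 0 UMIs. The fitted size of these 3 depends on the prior count, since no Pre-T member had a UMI. Atp10a, a phospholipid flippase, gave -5.48 (adjusted p = 0.000255) on 22, 24, 0 and 2 UMIs, and Map1b, a microtubule-binding protein, -4.95 (adjusted p = 0.0464) on 33, 27, 3 and 3 UMIs. In stellate-like nuclei Plcxd3 stood at 12.1, 22.0, 169 and 46.2 CPM and Atp10a at 5.20, 3.14, 65.3 and 12.9 CPM, both higher in the 2 Pre-T livers. All 6 lost the call when Ctrl 1, Ctrl 2 or Pre-T 1 was left out in turn, and Map1b also with DESeq2 size factors (adjusted p = 0.0511) and with at least 3 counts (0.0743). With members of at least 4 markers Adamts17 missed the threshold in the same edgeR test (adjusted p = 0.312). DESeq2 gave the 5 lower genes no adjusted p.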

How the results depend on the processing

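Every share comparison kept its direction and its side of the threshold under all settings, which say little here since the threshold could not be reached. Without 1 mouse the difference ranged from -0.997 to -0.782 points in Pre-T against Ctrl, from -1.09 to -0.952 in Post-T against Ctrl, from -0.240 to -0.0255 in Post-T against Pre-T and from -1.03 to -0.886 for the Western diet. Thinning to 500 UMIs gave -0.0907, -0.106, -0.0156 and -0.0985. Of the counts of genes, Pre-T against Ctrl gave 0 with a replicate block (219 genes at an unadjusted p under 0.05), 116 with mice of at least 10 members, which leaves out Pre-T 2, 2 with members of at least 4 markers, and 0 to 116 without 1 mouse. Members against stellate-like nuclei gave 927 to 1977 without 1 mouse, and against cholangiocyte-like nuclei 418 to 1043. The interaction gave 13 with DESeq2 size factors, 13 with at least 3 counts, 13 with members of at least 4 markers and 0 to 38 without 1 mouse. The causes were not tested. The deviations of the same-numbered mice of Ctrl and Pre-T from their group means gave r = -0.0646 over 2241 genes. With 2 mice a group both pairs give the same r by construction, and Pre-T 2 has 2 members. Whether the numbers pair the mice can therefore not be told from it. With the pairing of numbers as a block the share differences are the same by arithmetic (-0.889 points in Pre-T against Ctrl). The exact permutation p was 0.5, the smallest that 2 pairs allow. Cntnap3 ranged from -3.22 to 7.70 and Atf3 from -4.28 to 3.13 without 1 mouse, lowest without Pre-T 1 and without Ctrl 1. DESeq2 size factors moved the median of all genes from -0.68 to -0.84. Fits with only the 2 groups compared equal the main ones, since Post-T has no members, and comparisons with Post-T could not be run. Class comparisons already carry the mouse as a block. The depth of Pre-T 2 (2 members) limits every Pre-T value.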
